A study of Homo sapiens with 12 samples.

Results

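Teneurins and latrophilins were followed in SW1353 chondrosarcoma cells after transfection with a mimic or an inhibitor of miR-455-3p. The set held 7 genes, 4 teneurins (TENM1, TENM2, TENM3 and TENM4) and 3 latrophilins (ADGRL1, ADGRL2 and ADGRL3), of 40490 gene identifiers. TENM1 had been picked on its lower value in the inhibitor libraries than in the inhibitor control libraries, and the other genes were added as its relatives and receptors. For the 7 genes, differences between those 2 groups were therefore given as a description with no test, and only genes outside the set were tested there. Of the 7 genes, 6 passed a filter on low values (5 or more in 6 or more of the 12 libraries) and were tested among 16468 genes, while ADGRL3 was too low.

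Teneurins are large cell surface proteins that span the membrane once and carry a string of EGF-like repeats and a beta-propeller and barrel domain outside the cell. They bind each other and the latrophilins, which are adhesion G protein-coupled receptors first known as a target of alpha-latrotoxin from black widow spider venom. Latrophilins also bind the FLRT proteins, and these contacts are best known for guiding axons and organising synapses in the brain.

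SW1353 is a human chondrosarcoma cell line in common use as a cartilage cell model, and a mimic is a synthetic copy of a microRNA while an inhibitor is an oligonucleotide that binds it. Cells were given the miR-455 mimic or its mimic control, or the inhibitor or its inhibitor control, each at 50 nM by lipofection, and RNA was taken after 48 hours. Each of the 4 groups had 3 libraries, and all shared the same line, the same reagent and the same time point. The level of miR-455-3p itself was not analysed here.

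The deposited values, called normalised signal here, were estimated counts per gene scaled between libraries and not corrected for length. They summed to between 10974101 and 12016813 per library, which is not the sequencing depth, and no depth was stated in the sources used. On the first principal component, with 25% of the variance, mimic replicate 3 lay at 20.9, beside the inhibitor control libraries at 21.1 to 31.7, whereas mimic replicates 1 and 2 lay at -59.7 and -41.5. Of 9 cartilage markers 4 passed the filter. SOX9, the regulator of cartilage cell identity, was at 994 to 1415, but COL2A1, the type II collagen that defines cartilage matrix, was at 0 in every library. COL11A1, another of the cartilage markers, was at 309 to 635. Of 7 mesenchymal markers 6 passed the filter, with vimentin (VIM) at 33623 to 43293. COL3A1 of that list was only at 19.5 to 48.3, and THY1 failed the filter at 2.24 to 4.48. The line thus expressed most but not all of the listed mesenchymal genes and lacked the main cartilage collagen. Since all libraries came from 1 cell line, and no label says whether they were separate transfections, each p-value reflects only how far these libraries varied, which may be technical.

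The mature microRNA and the places where the gene transcripts could pair with its seed were examined first. The miR-455-3p sequence from RefSeq (GRCh38.p14, chr9:114209487-114209507, plus strand) is printed 5′ to 3′ with the seed, bases 2 to 8, in capitals.
miR-455-3p: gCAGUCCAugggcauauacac
The longest 3′ UTR of each gene in GENCODE release 29 (GRCh38) was searched on the sense strand for an 8mer (TGGACTGA), a 7mer-m8 (TGGACTG not followed by A), a 7mer-A1 (GGACTGA not preceded by T) and a 6mer (GGACTG with neither). The 5 matches among the 7 genes that cover all of bases 2 to 8 of the microRNA are shown, with the match in capitals.
TENM4 8mer, chr11:78656240-78656269, minus strand: ggaaaccttgtTGGACTGAtaagctcatgg
TENM4 8mer, chr11:78655385-78655414, minus strand: gccactgcgccTGGACTGAgtgtttgtttc
TENM4 7mer-m8, chr11:78656813-78656841, minus strand: gatcgcagagcTGGACTGgggcaggctgg
TENM3 7mer-m8, chr4:182802562-182802590, plus strand: tcttcttgacgTGGACTGgtcttcactcg
ADGRL2 7mer-m8, chr1:81990497-81990525, plus strand: cgtgcaagttgTGGACTGtggactaagtc

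All 5 lay in the last exon of their gene, exon 34 of TENM4, exon 28 of TENM3 and exon 22 of ADGRL2. TENM4 was the richest, with 2 8mers at bases 1800 and 2655 and a 7mer-m8 at base 1228 of a UTR of 5227 bases. TENM3 held a 7mer-m8 at base 2222 and also a 7mer-A1 and a 6mer in 2673 bases. ADGRL2 held a single 7mer-m8 at base 147 of 1835 bases, and ADGRL1 held 2 6mers in 3130 bases. No match of any of these classes was present in TENM1 over 4633 bases, in TENM2 over 1347 bases or in ADGRL3 over 8166 bases. Thus TENM1, the gene around which the set was picked, carried none of these letters in its 3′ UTR. Among 14060 tested genes with an annotated 3′ UTR, 3.92% held an 8mer, 13.2% held an 8mer or a 7mer-m8, and 0.135% held 2 or more 8mers as TENM4 did. Neither these shares nor the counts per gene were adjusted for UTR length. A match describes the sequence and is not a measured binding site.

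**Figure D1:**
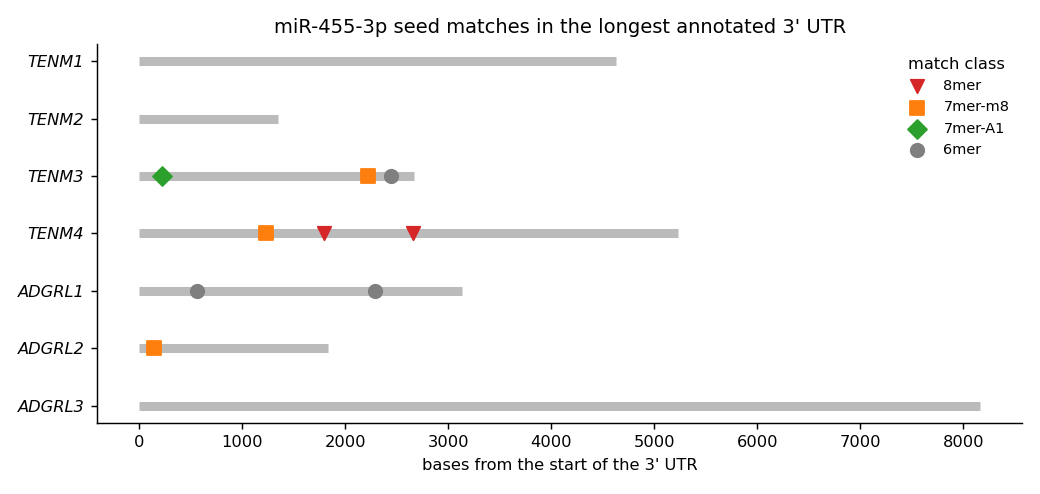
Map of matches to the miR-455-3p seed in the 7 genes. Each grey bar is the longest annotated 3′ UTR in bases from its start and each symbol is a match of the class in the legend, and TENM4 held the 2 8mers while the bars of TENM1, TENM2 and ADGRL3 held no symbol.

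Levels of the 7 genes were compared with each other only per kilobase of the longest annotated transcript. TENM1 was the most abundant of the family in every library, at 66.1 to 210.1 normalised signal per kb, followed by TENM3 at 14.5 to 28.0 and ADGRL1 at 7.38 to 13.2, and these 3 ranges did not overlap. TENM4 came next at 2.98 to 8.22 per kb, then ADGRL2 at 0.815 to 10.4 and TENM2 at 0.850 to 3.26. Over all libraries the range of each of these last 3 overlapped its neighbour in the order, and those of TENM4 and ADGRL2 also overlapped ADGRL1. Within every single library, however, ADGRL1 was above TENM4 and TENM4 above TENM2, and only ADGRL2 changed place. ADGRL3 was lowest, at 0 to 0.133 per kb.

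TENM1, the X-linked teneurin (ENSG00000009694, chrX:124375903-124963817, minus strand), had 2436.6, 2565.8 and 2425.8 normalised signal in the mimic control libraries and 2233.2, 2318.7 and 2534.6 with the mimic. It had 2210.2, 2708.9 and 2059.7 in the inhibitor control libraries and 852.6, 1072.6 and 971.8 with the inhibitor. The 3 inhibitor libraries were the lowest of the 12 and lay below all others, whereas the other 3 groups overlapped. The mean was 966 ± 110 (SD, n = 3) with the inhibitor and 2326 ± 340 in its control, a ratio of 0.415 and a log2 difference of -1.26 ± 0.11 (SE), which is the value that chose this gene. With the mimic the mean was 2362 ± 155 against 2476 ± 77.9 in its control, and this comparison was not used in the choice. The log2 difference was -0.07 ± 0.11 (95% interval -0.31 to 0.17, limma adjusted p = 0.846), so no difference larger than the spread between replicates was found. Between inhibitor control and mimic control the log2 difference was -0.10 ± 0.11, described without a test because it shares the inhibitor control libraries.

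**Figure D2:**
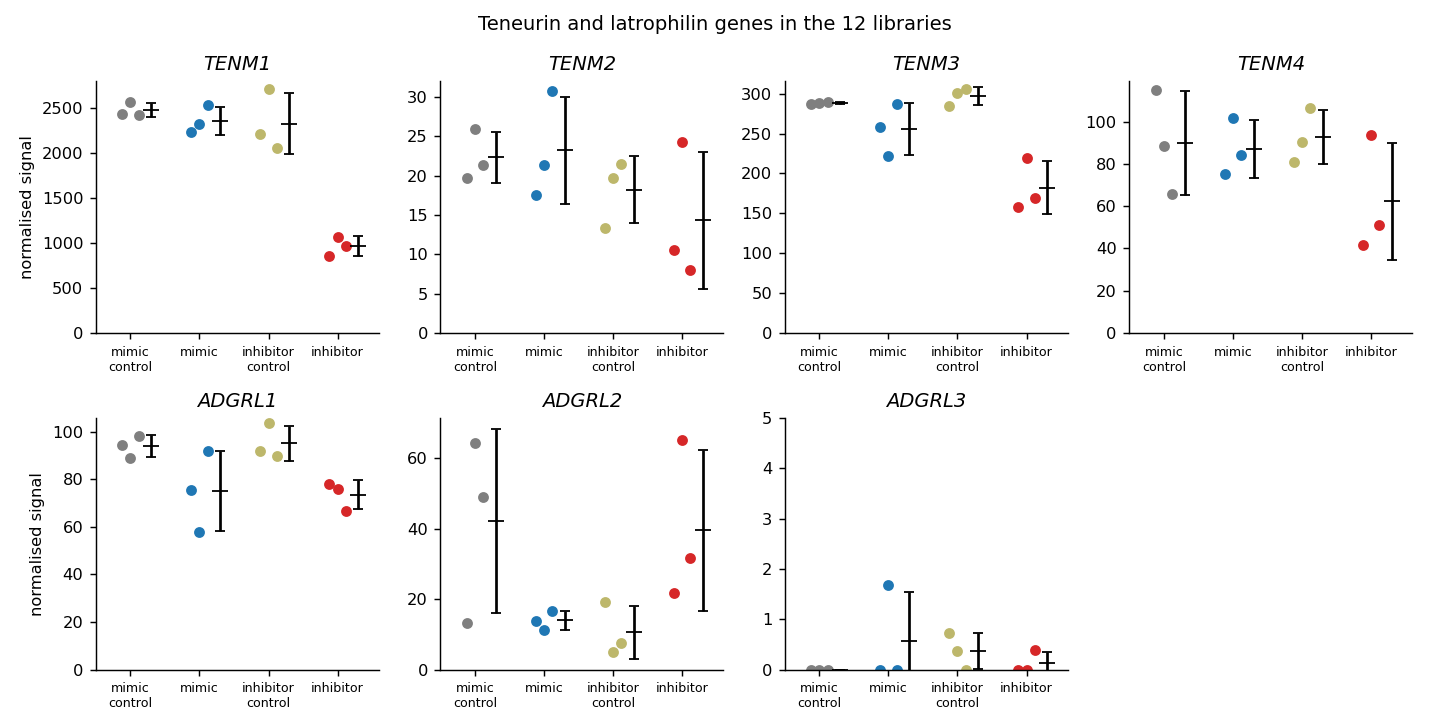
Normalised signal of the 7 genes in each library by group, with each point a library and the black bar the mean and SD of 3. The 3 inhibitor libraries of TENM1 lay between 852.6 and 1072.6 and below the other 9, and the axis of ADGRL3 runs from 0 to 5, the minimum value of the filter.

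TENM3, a teneurin known in mouse for matching axons to their targets in the visual system and hippocampus (chr4:182143987-182803024, plus strand), had 287.5, 288.7 and 289.6 in the mimic control libraries and 258.2, 222.4 and 287.0 with the mimic. Its inhibitor control libraries were at 284.4, 300.5 and 305.6, and its inhibitor libraries at 157.6, 219.9 and 169.5. The inhibitor libraries were again the lowest of the 12, although the highest of them, 219.9, came close to mimic replicate 2 at 222.4. In the inhibitor comparison the ratio of means was 0.614 and the log2 difference -0.72 ± 0.13. With the mimic the libraries also lay below their control without overlap, at a mean of 256 ± 32.4 against 289 ± 1.05, but the log2 difference of -0.18 ± 0.13 did not pass the test (95% interval -0.47 to 0.11, limma adjusted p = 0.615). The controls differed by 0.04 ± 0.13 on the log2 scale (limma adjusted p = 0.875).

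TENM4, in which missense variants have been linked to essential tremor (chr11:78652831-79440948, minus strand), had 115.1, 88.5 and 65.7 in the mimic control libraries and 75.2, 101.8 and 84.1 with the mimic. It had 81.0, 90.3 and 106.3 in the inhibitor control libraries and 41.8, 93.6 and 51.2 with the inhibitor. Inhibitor replicates 1 and 3 were the lowest of the 12 and inhibitor replicate 2 lay inside the control range. The inhibitor comparison had a log2 difference of -0.65 ± 0.28. The gene with 2 8mers thus had a mean of 87.0 ± 13.5 with the mimic and 89.8 ± 24.7 in its control, a log2 difference of -0.02 ± 0.28 (95% interval -0.63 to 0.59, limma adjusted p = 0.989). The interval was wide at this level of signal.

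TENM2, the teneurin best known as a high-affinity ligand of latrophilin-1 (chr5:167284799-168264157, plus strand), was low throughout. It had 19.7, 25.9 and 21.4 in the mimic control libraries, 17.5, 21.4 and 30.8 with the mimic, 13.4, 19.8 and 21.5 in the inhibitor control libraries and 10.6, 24.3 and 8.0 with the inhibitor. All 4 groups overlapped. Its log2 difference was -0.47 ± 0.39 in the inhibitor comparison, 0.03 ± 0.39 with the mimic (limma adjusted p = 0.988) and -0.31 ± 0.39 between the controls (limma adjusted p = 0.643).

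Per kilobase, the 4 teneurins summed to 227 ± 6.60 in the mimic control group, 215 ± 14.8 with the mimic, 216 ± 26.2 in the inhibitor control group and 97.6 ± 14.1 with the inhibitor (SD, n = 3). TENM1 made up 84.5% ± 0.644 of that sum in the mimic control group, 85.1% ± 0.565 with the mimic, 83.3% ± 2.29 in the inhibitor control group and 77.0% ± 2.74 with the inhibitor. TENM3 took 11.7%, 10.9%, 12.7% and 17.1% in the same order. The teneurin pool of these cells was therefore mostly TENM1 in each group, and the summed level followed that gene. In bulk RNA, fewer cells expressing a gene and less RNA of it per cell cannot be told apart.

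ADGRL1, latrophilin-1 (chr19:14147743-14206187, minus strand), had the highest mean per kilobase of the latrophilins (10.7, beside 4.22 for ADGRL2), although in inhibitor replicate 2 ADGRL2 was above it (10.4 and 9.64 per kb). It had 94.5, 89.0 and 98.0 in the mimic control libraries, 75.6, 57.9 and 91.8 with the mimic, 91.9, 103.5 and 89.8 in the inhibitor control libraries and 78.1, 75.7 and 66.6 with the inhibitor. The inhibitor libraries lay below their control without overlap, at a ratio of 0.773 and a log2 difference of -0.37 ± 0.17. With the mimic the mean was 75.1 ± 16.9 against 93.9 ± 4.56, the groups overlapped, and the log2 difference of -0.34 ± 0.17 did not pass the test (95% interval -0.71 to 0.02, limma adjusted p = 0.420). The point estimate was thus below 0 after transfection with either oligonucleotide, each against its own control. The controls differed by 0.02 ± 0.17 (limma adjusted p = 0.960).

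ADGRL2, latrophilin-2 (chr1:81306160-81992436, plus strand), a postsynaptic adhesion molecule in mouse hippocampus, was the 1 tested gene of the family above 0 in the inhibitor comparison, and it varied widely within 3 of the 4 groups. The mimic control libraries had 13.3, 64.2 and 48.9, and the mimic libraries 14.0, 11.4 and 16.8. The inhibitor control libraries had 19.2, 5.1 and 7.7, and the inhibitor libraries 21.7, 65.2 and 31.7. Inhibitor libraries lay above their control without overlap, but the coefficient of variation reached 61.9% in the mimic control group, 70.3% in the inhibitor control group and 57.7% in the inhibitor group.

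In the inhibitor comparison the ADGRL2 ratio of means was 3.71 and the log2 difference 1.90 ± 0.60. With the mimic the mean was 14.0 ± 2.67 against 42.1 ± 26.1, and the log2 difference of -1.30 ± 0.60 did not pass the test (95% interval -2.61 to 0.01, unadjusted p = 0.0513 and adjusted p = 0.384 by limma). The controls themselves differed by -1.87 ± 0.60 (95% interval -3.18 to -0.56), which missed the threshold at a limma adjusted p of 0.0649 over the 16468 genes. The value moved with the library left out, from -1.43 without mimic control replicate 2 (limma adjusted p = 0.199) to -2.55 without mimic control replicate 1, the low library of its group (limma adjusted p = 0.0356), and it also passed the threshold without mimic replicate 3 (limma adjusted p = 0.0462). With any other library left out it did not pass. The inhibitor mean of 39.5 ± 22.8 was thus near that of the mimic control group, and the 2 groups that were low were the mimic and the inhibitor control.

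ADGRL3, latrophilin-3 (chr4:61201258-62078335, plus strand), linked to attention deficit hyperactivity disorder in people, did not reach 5 in any library. It was listed at 0 in all 3 mimic control libraries and at most at 1.68, in mimic replicate 2. No comparison was made for it.

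Counted together, none of the 6 tested genes was called with the mimic by limma at an adjusted p under 0.05. None had an unadjusted p under 0.05, beside 13.2% of all genes, and 5 had a log2 difference below 0. Over all genes tested 0.759% were called in that comparison, and without mimic replicate 3 the share of all genes was 4.88% while still none of the 6 was called. TENM3 was the 1 gene of 6 whose mimic and mimic control libraries did not overlap, a pattern shown by 16.4% of all genes. The median log2 difference of the 6 genes was -0.13, beside 0.01 over all genes.

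In the inhibitor comparison, which was not tested for these genes, 5 of the 6 had a log2 difference below 0 and 4 had groups that did not overlap, beside 25.2% of all genes. TENM1 was picked on this comparison, and its relatives were chosen with earlier results of these data known, so nothing was read from these counts. The median was -0.56, beside 0.03 over all genes. Between the controls none of the 5 genes other than TENM1 was called, beside 10.1% of all genes. Of these 5, ADGRL2 alone had an unadjusted p under 0.05 by limma (0.00876), beside 29.2% of all genes. None of the 6 had groups without overlap, beside 41.2% of all genes, and the median was -0.04 beside -0.02 over all genes. This comparison and the other 2 share control libraries, so their values are not independent of each other.

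**Figure D3:**
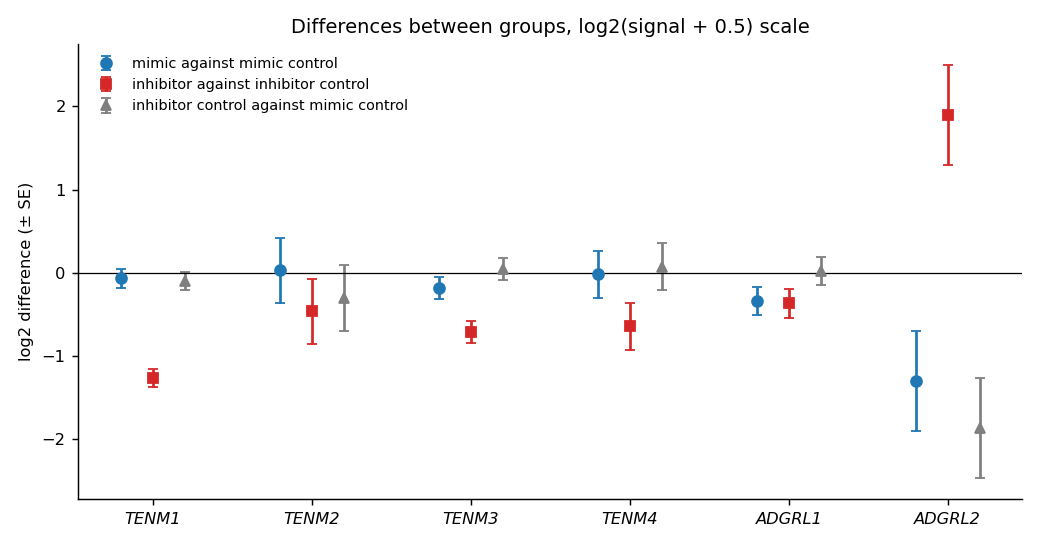
Difference between groups on the log2(normalised signal + 0.5) scale for the 6 tested genes, with bars of 1 SE. Squares show the inhibitor comparison, from -1.26 for TENM1 to 1.90 for ADGRL2, and circles show the mimic comparison, in which no gene passed the test.

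All of the genes except ADGRL1 shared a feature that the choice did not use, namely a very long genomic span. TENM1 spans 588 kb, TENM2 979 kb, TENM3 659 kb, TENM4 788 kb, ADGRL2 686 kb and ADGRL3 877 kb, at percentiles 99.1 to 99.7 among annotated tested genes of any type, whereas ADGRL1 spans 58.4 kb, at percentile 68.1. In the inhibitor comparison the median log2 difference was 0.05 for 8876 protein coding genes under 50 kb, 0.00 for 4271 genes of 50 to 200 kb, -0.10 for 929 genes of 200 to 500 kb and -0.23 for 211 genes of at least 500 kb. Without the 5 tested genes of this family in that class, 206 long genes had a median of -0.22, with 22 called lowered and 1 raised, 11.2% of them, beside 1.55% of all genes (129 lowered and 126 raised).

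In the mimic comparison the 211 long genes had a median log2 difference of -0.03, with 3 raised and none lowered, 1.42% beside 0.759% of all genes. Between the controls their median was -0.17, with 5 raised and 15 lowered. That was 9.48% of them, beside 10.1% of all genes (781 raised and 886 lowered). The shorter classes there had medians of 0.06 under 50 kb, -0.16 at 50 to 200 kb and -0.20 at 200 to 500 kb. In the last of these classes 15 genes were raised and 100 lowered. Lower values of longer genes were therefore not limited to the inhibitor comparison. In the inhibitor comparison 153 of the 211 long genes lay below 0. ADGRL2 was among those that did not, at 1.90 ± 0.60 with wide spread between replicates. The share of span in the values of TENM1 and TENM3 was not tested.

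**Figure D4:**
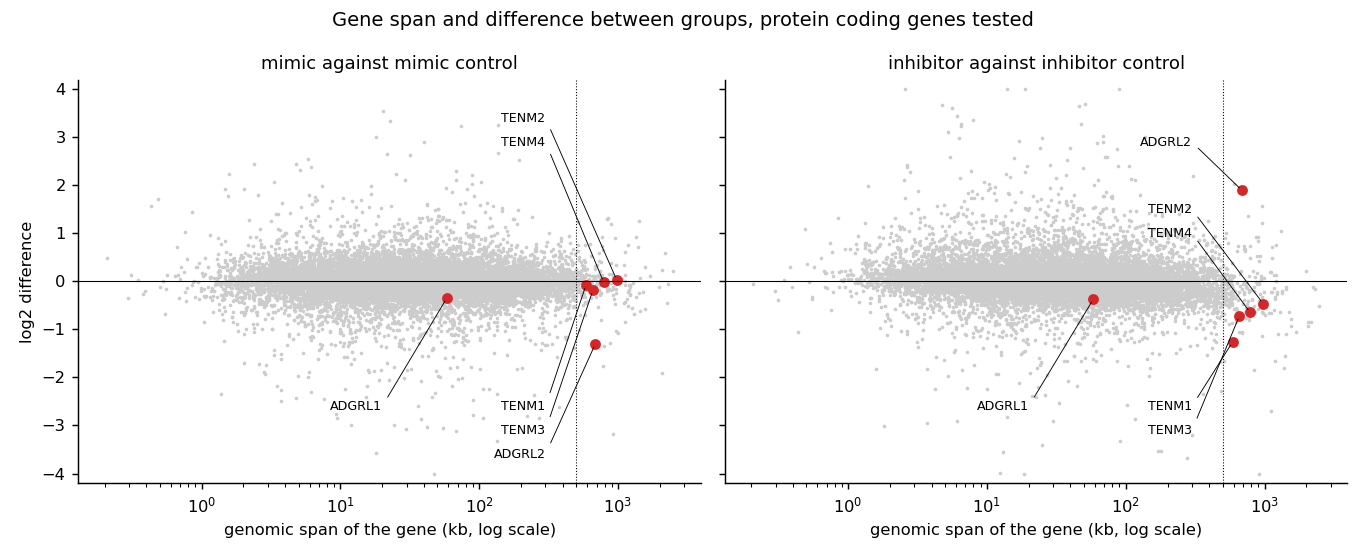
Log2 difference of each tested protein coding gene (grey) against its genomic span in kb on a log axis, with the 6 tested genes of the family in red and a dotted line at 500 kb. Grey points beyond the range of the axis are drawn at its ends. In the inhibitor comparison 4 of the 5 long genes of the family lay below 0, beside 153 of all 211 genes of at least 500 kb.

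The genes whose signal followed TENM1 most closely over the 12 libraries, among 13805 genes with a mean of at least 20, were DIP2C (Pearson r = 0.975), CDH4, the cell adhesion protein R-cadherin (0.971), FTO, an RNA demethylase (0.966), SH3RF3 (0.958) and ITGA10, a collagen-binding integrin subunit of cartilage cells (0.957). DHRS7C (-0.983), AKR1B10, an aldo-keto reductase (-0.976), and CALHM3 (-0.971) ran most opposite. Within the family r with TENM1 was 0.898 for TENM3, 0.667 for TENM4, 0.648 for TENM2, 0.488 for ADGRL1 and -0.365 for ADGRL2. These correlations describe 12 points that share libraries and are dominated by the 3 inhibitor libraries.

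The neighbours of TENM1 on the X chromosome were examined for a like difference. XIAP, TEX13D and SH2D1A on one side and TEX13C, SMARCA1 and OCRL on the other passed the test in none of the 3 comparisons, with log2 differences between -0.06 and 0.29 in the inhibitor comparison. The nearest, SH2D1A (2.71 kb away) and TEX13D (39.0 kb), had group means of 5.11 to 7.53 and 5.96 to 12.4, near the filter minimum of 5. Their SEs of 0.45 and 0.55 were wide, so only a large difference would have shown. XIAP and TEX13C lay 462 and 356 kb away, and SMARCA1 and OCRL 4483 and 4576 kb away. STAG2, a cohesin subunit on the opposite strand, shares 241 exonic bases with TENM1, and reads of the 2 genes there cannot be told apart without strand information, which no source gave. Its mean was 439 ± 30.4 in the inhibitor control group and 479 ± 20.7 with the inhibitor (log2 0.13 ± 0.11, limma adjusted p = 0.658). Between the controls STAG2 did pass the test, at 705 ± 26.3 in the mimic control group and lower in the inhibitor control group (log2 -0.68 ± 0.11, limma adjusted p = 0.00645), whereas TENM1 was at -0.10 ± 0.11 there. Antisense transcripts also share exonic bases with ADGRL1 (473), with TENM3 (115 and 118) and with ADGRL3 (153).

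Among partners of the family, 4 of 7 FLRT and UNC5 genes were tested, which encode latrophilin ligands and the netrin receptors that join them in complexes. By limma none was called in any of the 3 comparisons, beside 0.759%, 1.55% and 10.1% of all genes. At an unadjusted p under 0.05 there was 1 with the mimic, 0 with the inhibitor and 0 between the controls, beside 13.2%, 14.5% and 29.2% of all genes. The median log2 difference was -0.34 with the mimic, -0.34 with the inhibitor and 0.22 between the controls. Over all genes it was 0.01, 0.03 and -0.02. With the mimic FLRT1 (-1.88 ± 0.78) and UNC5A (-0.77 ± 0.47) lay below 0, while FLRT2 (0.11 ± 0.26) and UNC5B (0.10 ± 0.21) lay above. FLRT1 had means of 2.28 with the mimic and 7.57 in its control, near the filter minimum of 5. UNC5B averaged 148 and FLRT2 41.8 normalised signal over the 12 libraries, values that are not scaled to length and so do not rank the 2 genes. Of 5 other cell surface partners 3 were tested, and 1 of these was called, in the inhibitor comparison, in which 1.55% of all genes were called. NRXN3, a presynaptic neurexin whose relatives bind latrophilin-1, fell with the inhibitor from 506 ± 40.2 to 246 ± 39.8 (log2 -1.05 ± 0.12, limma adjusted p = 0.00106), and its span is 1698 kb. Among the 206 genes of at least 500 kb outside the family, 11.2% were called there, 22 lowered and 1 raised. These partner lists were chosen with earlier results of these data known.

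Of 29 other adhesion G protein-coupled receptors 19 were tested, and by limma none was called with the mimic or the inhibitor, while 6 and 4 had an unadjusted p under 0.05, beside 13.2% and 14.5% of all genes. Their median log2 differences were -0.05 and 0.05. Between the controls 3 of the 19 were called, 15.8% beside 10.1% of all genes. ADGRD1 (log2 0.47, limma adjusted p = 0.0362) and ADGRV1 (0.82, adjusted p = 0.0265) were higher in the inhibitor control and ADGRF4 (-1.02, adjusted p = 0.0124) was lower. All 14 intracellular partners and G protein alpha subunits were tested, of which 1 was called with the mimic (7.14%, beside 0.759% of all genes) and 3 between the controls (21.4%, beside 10.1%). GNA12, one of the G protein alpha subunits, rose with the mimic from 3827 ± 184 to 5100 ± 360 (log2 0.41 ± 0.07, limma adjusted p = 0.0152). It was also higher in the inhibitor control than in the same mimic control libraries (0.39, adjusted p = 0.00828), as was HINT1 (0.68, adjusted p = 0.0150), while GNA13 was lower (-0.61, adjusted p = 0.00941). With the inhibitor none of the 14 was called by limma, and 2 had an unadjusted p under 0.05, beside 14.5% of all genes.

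Because teneurins and latrophilins are best known in neurons, markers of neurons and glia were summed. Of 10 markers 5 passed the filter. The summed signal of all 10 was 368 to 467 in the mimic control libraries, 359 to 409 with the mimic, 397 to 428 in the inhibitor control libraries and 552 to 731 with the inhibitor. NEFL, a neurofilament subunit, was at 446 ± 104 with the inhibitor and 166 ± 34.2 in its control. GFAP, a filament protein of astrocytes, was at 68.1 ± 7.14 with the inhibitor and 126 ± 54.0 in its control, and SNAP25, a synaptic vesicle fusion protein, at 85.6 ± 11.9 and 102 ± 16.9. The higher sum thus came from NEFL and not from the list as a whole, and STMN2, NEFM, GAP43 and DCX did not pass the filter. NEFL was high in the libraries in which TENM1 was low, and its part in the TENM1 value was not tested.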

How the data were processed

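RNA of 12 SW1353 libraries, 4 groups of 3, was sequenced. The submitters' processing notes name FastQC, Trim Galore, kallisto, sleuth and hg38, with their versions, the annotation and strandedness not given in the sources used here. Values deposited by the authors are a normalised signal, estimated counts per Ensembl gene scaled per library. Reads that fit several transcripts are divided between them in such estimates, and depth per library cannot be read from their totals, so precision was judged from the replicates alone.

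Symbols were matched to 35521 of 40490 identifiers, and 35493 identifiers were in GENCODE release 29. Values were analysed as log2(value + 0.5), where the pseudocount understates differences of low genes such as TENM2 and ADGRL2. Genes with at least 5 in at least 47% of libraries were fitted with 4 group means (limma 3.58.1, R 4.3.3, lmFit and eBayes with an intensity trend, both directions tested), with Benjamini-Hochberg adjustment over all 16468 genes and a threshold of 0.05. The fit was tested on simulated data. Python 3.11.15, numpy 2.4.6, pandas 2.3.3 and matplotlib 3.10.9 made tables and plots.

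The members and the lists (FLRT and UNC5 genes, other adhesion receptors, cell surface partners, intracellular partners, cell type markers) were chosen with earlier results of these data known. All 7 genes were named, with genes of the partner and receptor lists named where they passed the test, the 5 genes most like TENM1 and the 3 most unlike. Only in the FLRT and UNC5 list were genes, UNC5B and FLRT2, named for the largest means, and its other tested genes, FLRT1 and UNC5A, were named too. Epithelial (1 of 4 tested), blood (1 of 4) and endothelial (1 of 3) markers were low, and 6 of 7 mesenchymal markers were tested. Alternatives were other pseudocounts (1 and 5), no filter, a mean of at least 20, rescaling by median ratios, array weights, a replicate block, the 6 libraries of a comparison alone, and leaving out each library. Replicates were numbered in each group, but no label said that libraries with the same number were paired, and the main fit had no block.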

Additional observations from a re-analysis of the deposited data

How the results depend on the processing

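No tested teneurin or latrophilin gene was called with the mimic under any of the 20 alternatives, and adjusted p-values by limma ranged from 0.589 to 0.947 for TENM1, from 0.177 to 0.863 for TENM3, from 0.0630 to 0.726 for ADGRL1 and from 0.233 to 0.706 for ADGRL2. Without mimic replicate 3, which lay apart from its group, ADGRL1 was at -0.50 (adjusted p = 0.0965). Between the controls the count was 0 and became 1, ADGRL2, with array weights (log2 -1.73, adjusted p = 0.0449), and ranged from 0 to 1 when a library was left out, with ADGRL2 called without mimic control replicate 1 or without mimic replicate 3 (adjusted p = 0.0462), in a range from 0.0356 to 0.203 over its alternatives. The log2 difference of TENM1 with the inhibitor lay between -1.35 and -1.15, that of TENM3 between -0.86 and -0.62 and that of ADGRL2 between 1.47 and 2.41. Fits with a replicate block called 0 of the genes with the mimic and 0 between the controls, and over all genes 93 with the mimic, 186 with the inhibitor and 1017 between the controls, in place of 125, 255 and 1667. Over the 20 alternatives those counts ran from 20 (the 6 libraries of the comparison alone) to 797 (without mimic replicate 3) with the mimic, where array weights gave 529, from 88 (without inhibitor replicate 1) to 1260 (array weights) with the inhibitor, and from 271 (without inhibitor control replicate 1) to 4623 (array weights) between the controls. Same-numbered libraries had deviations from their group means correlated at -0.124 to 0.063 in the 3 comparisons. No strong shared effect of the replicate number was seen, which does not show whether such libraries were handled together. The differences of TENM2 and TENM4 with the mimic changed sign under 5 and 4 alternatives, and those of TENM4 and ADGRL1 between the controls under 2 each. TENM2 was not in the fit that needs a mean of at least 20. With 3 libraries a group, intervals for ADGRL2, TENM2 and TENM4 were wide.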
